A study of Homo sapiens with 12 samples.

Results

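HepG2 is an established human liver tumour cell line in which 1 allele of the β-catenin gene lacks exon 3, so the cells hold a truncated β-catenin beside the full-length protein. The comparison described here sets the 3 arrays of cells given sißCat-mut, a small interfering RNA directed at the truncated form, against the 3 arrays of cells given sißCat-WT, directed at the full-length form. These are 6 of the 12 arrays of the study. The other 6 are 3 arrays of a control RNA (siCtrl) and 3 of an RNA directed at both forms (sißCat-both). All 4 groups are the same cell line with the same deleted exon, carry no other label of genotype or treatment, and were sampled at 120 h. No group has cells without the deletion. All 14884 genes with a symbol were compared, each through its probe set with the highest mean level over the 12 arrays. The question is how gene expression differs when the cells lose 1 form of β-catenin rather than the other. The study was done in triplicate, and nothing in the labels ties the 3 arrays of a group to separate cultures. The p-values therefore rest on a spread that may be technical only.

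β-catenin has a role in 2 places. At the cell membrane it links cadherins to the actin skeleton, and in the nucleus it binds TCF and LEF proteins and switches on the target genes of Wnt signalling. Without a Wnt signal the full-length protein is phosphorylated in a destruction complex built on axin and APC and is then degraded. The sites of that phosphorylation lie in the part encoded by exon 3, so a protein without it escapes degradation and keeps the target genes on. In liver, Wnt signalling is known for setting the genes of hepatocytes around the central vein, and its targets include several of its own brakes.

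Levels are deposited log2 values of microarray brightness, on which a difference of 1 is a 2-fold change. A gene was called where limma's adjusted p was under 0.05. The 3 arrays within each group correlated at r of 0.99554 to 0.99624 over all genes, and arrays of the 2 groups with each other at 0.9761 to 0.97891. On the first principal component of the 6 arrays, which held 78.64% of the variance, the sißCat-WT arrays lay between -27.27 and -24.63 and the sißCat-mut arrays between 25.55 and 26.86. The gene for β-catenin itself is not analysed here, so the labels were not checked against the targeted transcript. Hepatocyte markers were bright in both groups, with a mean level of 11.42 to 11.55 in the sißCat-WT arrays and 12.23 to 12.33 in the sißCat-mut arrays. Those of endothelial cells, stellate cells and lymphocytes were dim, with means of 4.11 to 5.09 and none of their 16 members above 7 in either group. The number of arrays limits the precision, with a median standard error (SE) of a difference of 0.10.

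Of the 14884 genes, 4611 differed between the 2 knockdowns (31.0% called), 2081 of them higher (14.0%) and 2530 lower (17.0%) after sißCat-mut than after sißCat-WT. The differences were mostly small, with a median size of 0.47 among the called genes and 0.16 over all genes. At least 2-fold differences were seen in 523 called genes (3.51%), 301 higher and 222 lower. At least 4-fold differences were seen in 54 genes that were higher and 26 that were lower. The groups of 3 arrays did not overlap in 6427 genes (43.2%). The share called was larger at a higher level of the gene, from 5.48% of the 3721 dimmest genes to 57.7% of the 3721 brightest. It was 35.3% for protein-coding genes, 14.7% for long non-coding RNAs and 9.42% for microRNA genes. These percentages are the background for every count of a gene group below. Many lists below hold bright genes, and of the 3721 brightest genes 960 were higher and 1187 lower. Rose, fell, higher and lower always compare sißCat-mut with sißCat-WT. A gene that fell can still lie above siCtrl, and one that rose below it.

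**Figure D1:**
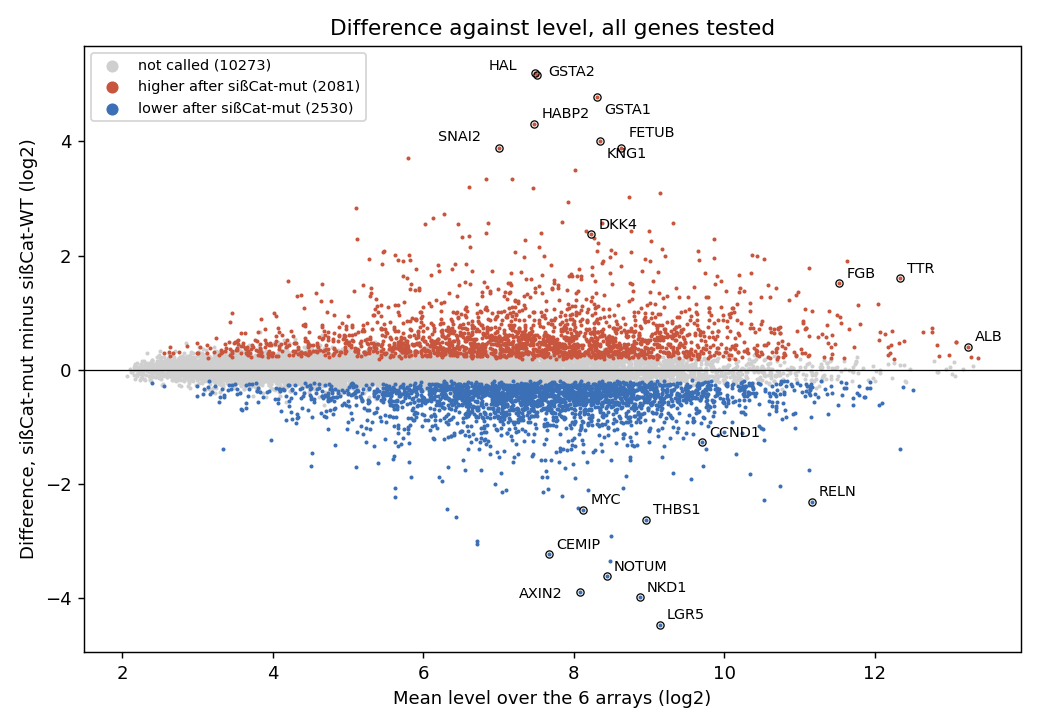
Difference between sißCat-mut and sißCat-WT (log2, vertical) against the mean level over the 6 arrays (log2, horizontal), 1 point for each of the 14884 genes. The 2081 genes that were higher are red, the 2530 that were lower blue and the 10273 not called grey; the extremes reach 5.19 for HAL at the top and -4.46 for LGR5 at the bottom.

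The stretches of genome around the starts of 7 genes are printed here because the results turn on these genes or on the motifs in them. They are RefSeq promoters on GRCh38.p14, from 250 bases before the start of each gene to 50 after it, written 5′ to 3′ along the gene. BAMBI (chr10:28677271-28677570, plus strand), RNF43 (chr17:58417485-58417784, minus strand) and SP5 (chr2:170715087-170715386, plus strand) are Wnt target and feedback genes with large falls. Each has a RefSeq promoter at hand. They are not the genes of that list with the largest falls. Some that fell more, among them MYC with a difference of -2.45, are not printed. HABP2 (chr10:113550581-113550880, plus strand) and KNG1 (chr3:186717109-186717408, plus strand) are the plasma protein genes with the largest rises. MCM3 (chr6:52284693-52284992, minus strand) and PLG (chr6:160701943-160702242, plus strand) stand for 2 motifs described at the end. Capitals mark matches to any of the 6 motifs searched, on either strand.
BAMBI: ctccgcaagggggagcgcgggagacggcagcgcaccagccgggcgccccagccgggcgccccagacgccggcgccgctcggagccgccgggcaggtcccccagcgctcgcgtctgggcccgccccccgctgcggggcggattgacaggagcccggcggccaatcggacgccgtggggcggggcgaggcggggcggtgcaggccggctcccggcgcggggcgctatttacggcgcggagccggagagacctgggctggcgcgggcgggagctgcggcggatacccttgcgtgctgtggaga
RNF43: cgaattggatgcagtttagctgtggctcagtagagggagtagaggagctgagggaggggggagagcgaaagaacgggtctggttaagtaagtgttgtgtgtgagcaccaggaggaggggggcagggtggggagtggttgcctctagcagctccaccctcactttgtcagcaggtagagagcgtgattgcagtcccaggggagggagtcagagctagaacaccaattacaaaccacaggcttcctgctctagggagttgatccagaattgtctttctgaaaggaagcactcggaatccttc
SP5: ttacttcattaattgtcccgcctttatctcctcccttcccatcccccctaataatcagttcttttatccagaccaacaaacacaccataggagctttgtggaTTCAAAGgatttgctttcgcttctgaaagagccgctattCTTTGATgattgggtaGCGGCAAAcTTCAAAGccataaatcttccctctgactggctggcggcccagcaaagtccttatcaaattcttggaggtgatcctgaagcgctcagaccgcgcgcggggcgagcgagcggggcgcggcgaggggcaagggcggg
HABP2: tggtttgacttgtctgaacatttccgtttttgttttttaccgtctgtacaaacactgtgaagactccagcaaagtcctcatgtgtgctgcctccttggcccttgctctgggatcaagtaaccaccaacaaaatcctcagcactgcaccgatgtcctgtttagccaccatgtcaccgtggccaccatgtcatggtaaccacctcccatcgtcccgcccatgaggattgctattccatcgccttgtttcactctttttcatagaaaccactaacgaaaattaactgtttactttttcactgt
KNG1: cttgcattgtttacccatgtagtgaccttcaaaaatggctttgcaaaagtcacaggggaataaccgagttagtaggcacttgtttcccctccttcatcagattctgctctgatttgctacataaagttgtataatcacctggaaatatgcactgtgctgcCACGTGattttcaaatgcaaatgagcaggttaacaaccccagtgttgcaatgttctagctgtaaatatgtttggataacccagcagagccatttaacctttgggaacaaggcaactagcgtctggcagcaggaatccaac
MCM3: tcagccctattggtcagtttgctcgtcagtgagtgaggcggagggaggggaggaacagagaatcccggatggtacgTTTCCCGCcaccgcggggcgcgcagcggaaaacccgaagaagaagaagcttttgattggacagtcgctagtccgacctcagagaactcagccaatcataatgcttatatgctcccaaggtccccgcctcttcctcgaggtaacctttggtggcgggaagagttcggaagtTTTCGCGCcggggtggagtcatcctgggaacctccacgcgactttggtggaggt
PLG: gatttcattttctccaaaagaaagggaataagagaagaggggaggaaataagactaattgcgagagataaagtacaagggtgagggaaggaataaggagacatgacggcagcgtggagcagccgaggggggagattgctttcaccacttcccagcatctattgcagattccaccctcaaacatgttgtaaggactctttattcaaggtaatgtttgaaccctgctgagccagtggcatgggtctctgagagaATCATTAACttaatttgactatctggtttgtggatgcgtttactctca
In SP5 the capitals are 3 TCF/LEF matches, which begin 148, 109 and 84 bases before the start, and an E2F match that begins 93 bases before it. KNG1 holds an E-box 90 bases before the start. MCM3 holds an E2F match 174 bases before the start and another across the start, and PLG an HNF1 match just after it. BAMBI, RNF43 and HABP2 have no match in this window.

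Genes known to be driven by β-catenin or to act back on Wnt signalling make up the Wnt target and feedback list. Of 33 measured, 16 were lower after sißCat-mut than after sißCat-WT, 1 was higher and 16 were not called. Over all genes tested 17.0% were lower. The median difference of the 33 was -0.20, against 0.00 over all genes. It was -1.28 when dim genes were left out and -0.36 without the first sißCat-mut array.

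Among the genes that set how many Wnt receptors reach the cell surface, 3 of 4 were lower. LGR5, a receptor for R-spondins that strengthens Wnt signalling, had levels of 11.38, 11.40 and 11.34 in the sißCat-WT arrays and 8.17, 6.57 and 6.02 in the sißCat-mut arrays. The groups lay far apart, and the first sißCat-mut array was the highest of its group. The difference was -4.46 ± 0.43 (SE, n = 3 and 3; limma adjusted p = 3.27e-06), the largest fall of all genes tested. The siCtrl arrays averaged 11.41 for LGR5, close to sißCat-WT. ZNRF3 and RNF43, enzymes that mark Wnt receptors for removal, fell by 2.06 and 1.89. RNF43 read 8.99, 8.92 and 9.0 after sißCat-WT and 7.09, 7.07 and 7.08 after sißCat-mut, with 9.08 in siCtrl. LGR4, the relative of LGR5, did not pass the test at 0.21 ± 0.08 (limma adjusted p = 0.0598), and passed it without the third sißCat-WT array (adjusted p = 0.019), without dim genes (0.0311), with a trended prior (0.0212) and with array weights (0.0441).

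Of 10 genes listed as feedback inhibitors, 6 were lower. NKD1, which restrains Wnt signalling at Dishevelled, read 10.86, 10.88 and 10.88 after sißCat-WT and 7.71, 6.53 and 6.43 after sißCat-mut. AXIN2, a scaffold of the destruction complex and a standard readout of the pathway, read 10.05, 10.10 and 9.97 against 6.72, 5.83 and 5.89. As with LGR5, the first sißCat-mut array kept the highest level for both genes, and no array of either group reached the other. The differences were -3.98 ± 0.32 for NKD1 and -3.89 ± 0.26 for AXIN2 (adjusted p = 4.97e-07 and 1.13e-07). The siCtrl means were 10.41 for NKD1 and 9.61 for AXIN2, both below sißCat-WT. NOTUM, a secreted enzyme that inactivates Wnt proteins, fell by 3.61, the secreted inhibitor DKK1 by 1.75 and the membrane protein APCDD1 by 1.28. BAMBI, which was listed here but is best known as a membrane pseudoreceptor that restrains TGF-β signalling, fell by 1.91.

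DKK4 was the exception. This secreted inhibitor of Wnt receptors, itself known as a Wnt target, read 7.06, 7.01 and 7.04 after sißCat-WT and 9.61, 9.57 and 9.07 after sißCat-mut. It was the only one of the 33 genes to be called higher, by 2.38 ± 0.12 (5.20-fold, adjusted p = 1.09e-08). The siCtrl mean was 7.64 and the sißCat-both mean 11.26, so DKK4 was higher in both groups given an RNA against the truncated form than in the other 2.

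Among the transcription factors of the list, 5 of 10 were lower and none was called higher. MYC, which drives growth and ribosome production, read 9.35, 9.29 and 9.42 after sißCat-WT and 6.99, 6.91 and 6.81 after sißCat-mut, and siCtrl averaged 9.34. The arrays of each group lay close together and the difference was -2.45 ± 0.11 (5.46-fold, adjusted p = 4.06e-09). FOSL1, a partner of JUN in AP-1, fell by 1.88, SP5, a repressor induced by Wnt, by 1.86, TBX3 by 0.89 and SOX9 by 0.73. Of 9 growth and matrix genes 2 were lower. The growth factor BMP4 fell by 1.82 ± 0.10 and the cyclin CCND1, which takes cells into S phase, by 1.27 ± 0.07. CCND1 read 10.37, 10.35 and 10.30 against 9.10, 9.08 and 9.03, with a siCtrl mean of 9.91 between them.

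The other members, JUN, NKD2, ASCL2, CD44, FGF9, WIF1, PROM1, SFRP1, LEF1, EPHB3, MET, CDX2, FZD7, TCF4, FGF20 and LGR4, did not pass the test. Their differences lay between -0.20 for JUN and 0.21 for LGR4. JUN was lower without the first sißCat-mut array, at -0.36 (adjusted p = 0.0126). In 7 of these 16 the level was near the floor of the array, below 4.78, the highest array median over all probe sets, so a difference there would be compressed.

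**Figure D2:**
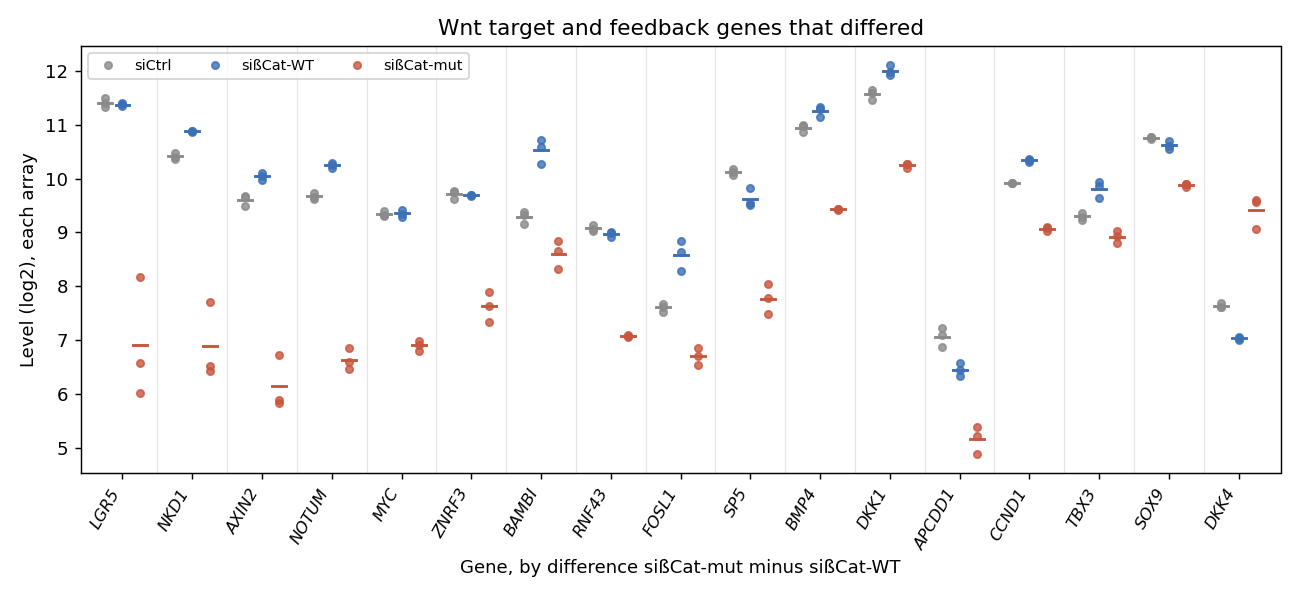
Level (log2, vertical) of the 17 Wnt target and feedback genes that differed, in each siCtrl (grey), sißCat-WT (blue) and sißCat-mut (red) array; bars are group means of 3 arrays. From LGR5 to SOX9 every red point lies below every blue point, and for DKK4 the order is turned, with 9.07 to 9.61 above 7.01 to 7.06.

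The machinery of the pathway moved less. Of 31 receptors, destruction complex members, ligands and nuclear partners, 11 were lower and 2 higher, with a median of -0.06. Only 1 was higher without the second sißCat-WT array or without any 1 of the sißCat-mut or siCtrl arrays, and 3 were without the first sißCat-both array. The largest falls were those of the receptors FZD6 (-1.58 ± 0.08) and FZD4 (-1.52 ± 0.08). FZD4 read 9.89, 9.94 and 9.97 after sißCat-WT against 8.46, 8.48 and 8.32, and siCtrl lay between at 9.29. FZD3 fell by 0.84 and AMER1, a membrane partner of APC, by 0.66. BTRC, which recognises phosphorylated β-catenin, was higher by 0.56. The co-receptor LRP6 (-0.24) and the Wnt carrier WLS (-0.20) did not pass the test, though LRP6 did without the first sißCat-WT array (-0.32, adjusted p = 0.0324).

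Of genes known from the hepatocytes around the central vein, 9 were measured, 3 were lower and 2 higher. The 3 that fell, LGR5, AXIN2 and TBX3, are also in the Wnt list. GLUL, which makes glutamine and is a standard mark of these hepatocytes, was higher by 0.25 ± 0.08 (adjusted p = 0.0289), with 8.41, 8.32 and 8.36 against 8.67, 8.70 and 8.46. That call was lost without the second or the third sißCat-WT array or the first or second sißCat-mut array (adjusted p of 0.0708 to 0.114). RGN, a calcium-binding protein of liver, was higher by 1.01. Of 12 measured genes of the hepatocytes around the portal vein, 7 were higher and 1 lower. Their median was 1.02, against 0.08 for the 9 genes of the central vein. Without dim genes the medians were 1.38 and -0.18.

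HAL, the first enzyme of histidine breakdown, was among the genes with the largest rises. It read 4.56, 5.08 and 5.05 after sißCat-WT and 10.13, 10.30 and 9.81 after sißCat-mut, with 5.76 in siCtrl. The sißCat-WT levels lay below or not far above 4.78, so the measured difference of 5.19 ± 0.19 (adjusted p = 8.98e-10) may be compressed and has no exact rank. OTC of the urea cycle and PCK1 of glucose production were below 4.78 in every sißCat-WT array and averaged 6.27 and 6.38 after sißCat-mut, so the size of their rise is not resolved. AGXT of glyoxylate detoxification rose by 2.23, TAT of tyrosine breakdown by 1.39, ASL by 1.37 and ASS1 by 0.66. ASS1 averaged 9.69 in siCtrl, close to the 9.76 after sißCat-mut and above the 9.10 after sißCat-WT. HAMP, the iron hormone hepcidin, was the one that was lower, by 0.92 ± 0.12 (1.90-fold). The amino acid list as a whole, which shares 6 of its genes with the portal list, had 23 of 32 higher and 2 lower, with a median of 0.69. The lower count was 1 without any 1 of the sißCat-mut or siCtrl arrays, the second or the third sißCat-WT array or the first sißCat-both array. GNMT, which uses glycine to spend methyl groups, rose by 1.85, and KYNU of tryptophan breakdown by 1.66. KYNU averaged 8.65 in siCtrl, 7.41 after sißCat-WT and 9.07 after sißCat-mut. MCCC2 of leucine breakdown fell by 0.52.

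Secreted plasma proteins of hepatocytes were higher after sißCat-mut than after sißCat-WT. Of 67 measured in 3 lists, 53 were higher and 1, HAMP, was lower, with a median of 1.03. Over all genes tested 14.0% were higher. In bulk RNA more cells making a protein and more RNA per cell cannot be told apart.

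Every one of 11 measured coagulation factors was higher, and 5 of 7 regulators of clotting and fibrinolysis were higher. HABP2, a plasma protease that binds hyaluronan, read 5.29, 5.40 and 5.27 after sißCat-WT and 9.25, 9.86 and 9.79 after sißCat-mut, with 4.99 in siCtrl. Its difference of 4.31 ± 0.19 was the largest of the list (adjusted p = 3.01e-09). KNG1, the precursor of bradykinin, read 6.58, 6.16 and 6.30 against 10.37, 10.50 and 10.17, a rise of 4.0 ± 0.10 that is 2.1 when the mean of its 2 probe sets is taken. PLG, the precursor of plasmin, rose by 3.34 ± 0.19, and PLGLA, a near-identical copy whose probes may read the same transcripts, by 3.21. F11 rose by 2.10 and VTN, vitronectin, by 1.90. The 3 fibrinogen chains FGB, FGA and FGG rose by 1.52, 1.16 and 1.03. FGB read 10.86, 10.55 and 10.90 against 12.42, 12.28 and 12.19, with 11.18 in siCtrl. CPB2 (0.08) and PROC (0.12) did not pass the test.

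**Figure D3:**
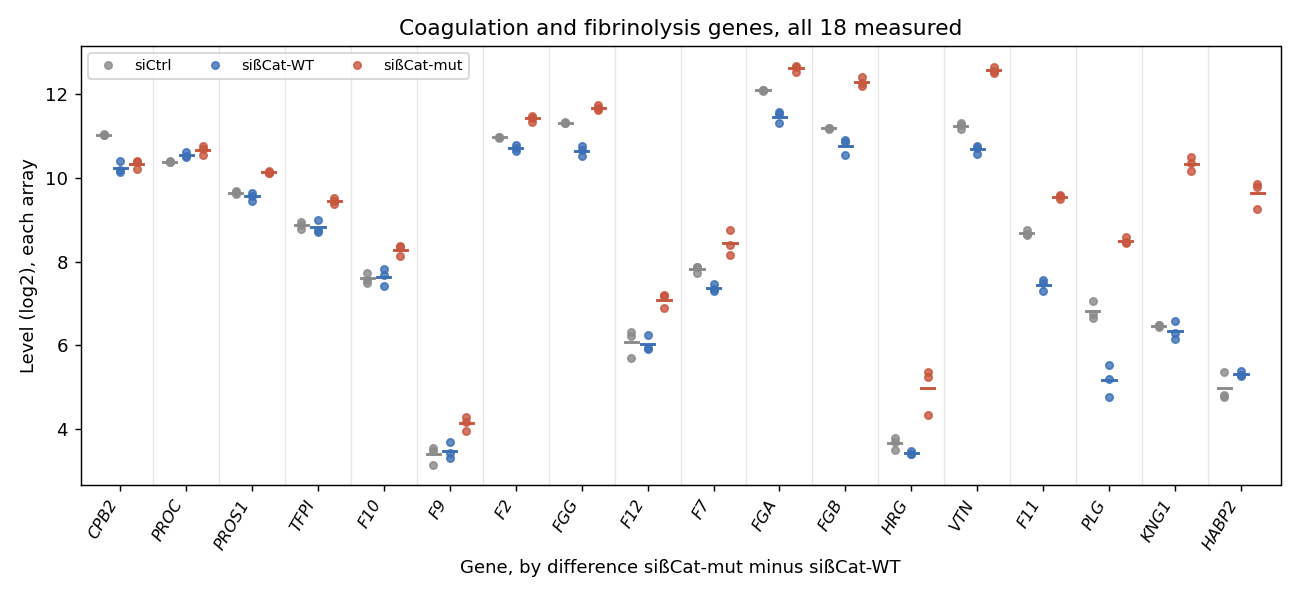
Level (log2, vertical) of all 18 measured coagulation and fibrinolysis genes in each siCtrl (grey), sißCat-WT (blue) and sißCat-mut (red) array, ordered by the difference between the last 2; bars are group means of 3 arrays. The red points lie above the blue ones in 16 genes, with the widest gap for HABP2 (4.31), and overlap them for CPB2 and PROC.

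Of 26 carrier proteins and apolipoproteins 21 were higher and none was called lower, or 1 without the first sißCat-mut array. Albumin, ALB, the most abundant plasma protein, read 13.02, 13.07 and 13.03 against 13.49, 13.46 and 13.41, a rise of 0.41 ± 0.06 (1.33-fold) near the top of the scale. FETUB rose by 3.88, the sex hormone carrier SHBG by 2.43, APOM and LCAT of high-density lipoprotein by 2.01 and 2.0, and the thyroid hormone carrier TTR by 1.61. TTR read 11.53, 11.51 and 11.56 against 13.14, 13.09 and 13.21, and siCtrl averaged 11.70. APOA1 rose by 0.69. APOB was called at 0.23, but not after renewed quantile scaling (0.02, adjusted p = 0.89) or without the second sißCat-WT array (0.21, adjusted p = 0.0566). ORM1 (0.16) did not pass the test. Of 23 complement and acute-phase genes 16 were higher and 1 lower, with a median of 1.08. PGLYRP2, which cuts bacterial cell wall, rose by 3.35, the antimicrobial peptide LEAP2 by 2.94, ITIH3 by 2.57, C6 of the membrane attack complex by 2.55 and MASP1 of the lectin pathway by 2.43. C3 was called at 0.24, yet read -0.01 after renewed quantile scaling (adjusted p = 0.947), so its direction depends on the scaling. SAA1 (0.04) did not pass the test. C4A and C4B are near-identical copies and read 1.08 and 1.09.

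Of 16 liver transcription factors 8 were higher and 2 lower. ONECUT1 rose by 1.70 ± 0.08, CREB3L3, a membrane-bound factor of fasting liver, by 1.5 ± 0.07 and PPARA, the receptor that switches on fatty acid oxidation, by 1.49 ± 0.10. ONECUT1 read 8.95, 8.80 and 8.96 against 10.65, 10.57 and 10.59, with 8.80 in siCtrl. GATA6 fell by 0.94. The pioneer factors FOXA1 (0.17) and FOXA2 (0.08) did not pass the test. Of 20 genes of progenitor cells and fetal liver 9 were lower and 3 higher. KRT23 fell by 2.04, SOX4 by 1.52, SPP1, osteopontin, by 1.38 and CD24 by 1.26, while DLK1 rose by 1.16, MIXL1 by 0.97 and AFP, fetal albumin, by 0.44. KRT19 fell by 0.40, and its siCtrl mean of 9.06 lay below both sißCat-WT (9.57) and sißCat-mut (9.18). MIXL1 averaged 9.92 in siCtrl, 7.40 after sißCat-WT and 8.37 after sißCat-mut, so it lay below siCtrl in both groups. CD24 averaged 8.17 in siCtrl, 9.63 after sißCat-WT and 8.37 after sißCat-mut, so it lay above siCtrl in both. Of the 6 cholangiocyte markers, 5 of which are in the progenitor list, 3 were lower and none was called higher, or 1 without the second sißCat-WT array. Their mean level was 8.79 to 8.95 in the sißCat-WT arrays and 8.44 to 8.57 in the sißCat-mut arrays, and its part in the progenitor counts was not tested.

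Detoxification and bile acid genes had 13 of 20 higher and 1 lower, with a median of 0.76. GSTA1 and GSTA2, glutathione transferases whose sequences are near-identical, rose by 4.77 ± 0.17 and 5.17 ± 0.23, so which copy the probes read is uncertain. GSTA1 read 6.28, 5.83 and 5.69 against 10.95, 10.79 and 10.35, with 8.19 in siCtrl, between the groups. GSTA2 lay below 4.78 in 2 of the 3 sißCat-WT arrays, so its difference may be compressed. BAAT, which joins bile acids to amino acids, rose by 2.59 and SLC51B, a subunit of a bile acid exporter, by 1.95. Its partner SLC51A and DPYD, which breaks down pyrimidines, were near the floor after sißCat-WT, with means of 4.74 and 4.80, and averaged 7.30 and 7.46 after sißCat-mut. FGFR4, the receptor that restrains bile acid synthesis, fell by 0.28, and without the third sißCat-mut array 2 genes of the list were lower.

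Genes of lipid synthesis and of lipid oxidation were both mostly higher. Of 17 cholesterol synthesis genes 16 were higher and none was called lower, with a median of 0.86. The 16 ranged from 0.37 for PMVK to 1.28 for STARD4, a sterol carrier. HMGCS1, which makes the substrate of the rate-limiting step, read 9.69, 9.59 and 9.42 against 10.66, 10.58 and 10.41, with 9.86 in siCtrl, a rise of 0.98 ± 0.10. SREBF2, the factor that drives this pathway, rose by 0.66 ± 0.07. Of 27 genes of fatty acid synthesis and storage 16 were higher and 3 lower. CIDEC and CIDEB of the lipid droplet rose by 2.39 and 1.52, ACSS2, which makes acetyl-CoA from acetate, by 1.48 and LPIN1 by 1.36, while PNPLA2, the main lipase of the droplet, fell by 0.60. FASN (0.19) did not pass the test. Of 16 genes of fatty acid oxidation and ketone body synthesis 12 were higher and none was called lower, with a median of 0.69. VNN1, a target of PPARA, was below 4.78 in every sißCat-WT array and averaged 7.66 after sißCat-mut. CPT1A, the gate of fatty acids into mitochondria, rose by 1.30 ± 0.08, and ACOT2 by 1.02.

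Further metabolic lists held calls in both directions or few calls. Of 18 glycolysis and hypoxia genes 5 were higher and 2 lower, led by EPO, erythropoietin, at 2.44 ± 0.13 and NDRG1 at 1.23, with HK2 lower by 0.66. Without the third sißCat-WT array or the first sißCat-mut array, 3 were higher, and leaving out any 1 of the 6 arrays left 1 lower. Of 15 respiratory chain genes 5 were higher, at most by 0.57 for COX8A, and 3 without the third sißCat-WT array. Of 17 insulin and glucose output genes 3 were higher (17.65%) and 4 lower (23.53%), not far above the 14.0% and 17.0% over all genes. Among them were IGFBP1 (1.28), ARRDC4 (-1.48), TXNIP (-1.28) and the kinase SIK1 (-1.20). ARRDC4 averaged 6.97 in siCtrl, nearer to the 6.72 after sißCat-mut than to the 8.21 after sißCat-WT. In the list of ATF4 targets and serine and one-carbon enzymes 4 of 15 were higher and 6 lower, from -1.19 for MTHFD1L to 0.65 for PHGDH.

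Genes that build ribosomes were lower after sißCat-mut. Of 61 measured 55 were lower and none was called higher, with a median of -0.61. Over all genes tested 17.0% were lower. NOC3L, which helps export the large subunit, read 8.07, 8.20 and 8.31 after sißCat-WT and 6.75, 6.65 and 6.66 after sißCat-mut, with 7.86 in siCtrl, a fall of 1.51 ± 0.09 (2.84-fold, adjusted p = 4.30e-08). DDX21 fell by 1.20, NOLC1 by 1.19, NAT10, which acetylates ribosomal RNA, by 1.14, the snoRNP methylase FBL by 0.77 and nucleolin, NCL, by 0.66. DDX21 read 9.89, 9.91 and 9.83 against 8.85, 8.64 and 8.55, with 9.86 in siCtrl. NOP10 (0.06) and RCL1 (-0.13) did not pass the test. The proteins of the finished ribosome were lower too, by less: 36 of 44 were lower and none was called higher, with a median of -0.37 and a range from -0.70 for RPL32 to -0.04. Many ribosomal protein genes have pseudogene copies that their probes may read. Of 17 tRNA synthetases 12 were lower and 1 higher, from -0.85 for VARS1 to 0.32 for IARS1.

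Cell cycle genes were lower as well. Of 45 mitosis genes 41 were lower and 1 higher, with a median of -0.62, and the members that fell did so by 1.08 at most. BUB1, a checkpoint kinase, read 9.87, 9.91 and 9.96 against 8.78, 8.79 and 8.95, with 9.63 in siCtrl, a fall of 1.08 ± 0.10 (2.11-fold, adjusted p = 1.50e-06). NEK2 fell by 1.06, HMMR by 1.02, CCNB1 by 0.97, and CDK1, the kinase that starts mitosis, by 0.91. MKI67, the proliferation mark, fell by 0.25, and was not called without the first sißCat-WT array or the first or second sißCat-mut array (adjusted p of 0.0655 to 0.112). CENPI of the kinetochore was the one that was higher, by 0.86 ± 0.14 (1.82-fold), and CDC25C (-0.27) did not pass the test, though it did without the first sißCat-mut array (-0.38, adjusted p = 0.0203). Of 38 DNA replication genes 31 were lower and none was called higher, with a median of -0.51. E2F7, a repressor in S phase, fell by 1.64, the cyclins CCNE2 and CCNE1 by 1.30 and 1.02, the helicase subunits MCM3 and MCM5 by 0.98 and 0.93, and the polymerase clamp PCNA by 0.82. MCM3 read 10.90, 11.02 and 10.93 against 10.03, 9.99 and 9.91, with 10.81 in siCtrl. RRM2 (-0.36) and E2F1 (-0.21) did not pass the test. RRM2 passed it in a fit of the 6 arrays alone (adjusted p = 0.00728) and without the first or the third sißCat-both array (0.00237 and 0.041). Among 7 genes often used as references, HPRT1 fell by 0.68 and TBP by 0.38 while B2M rose by 0.29, and the other 4 did not pass the test.

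**Figure D4:**
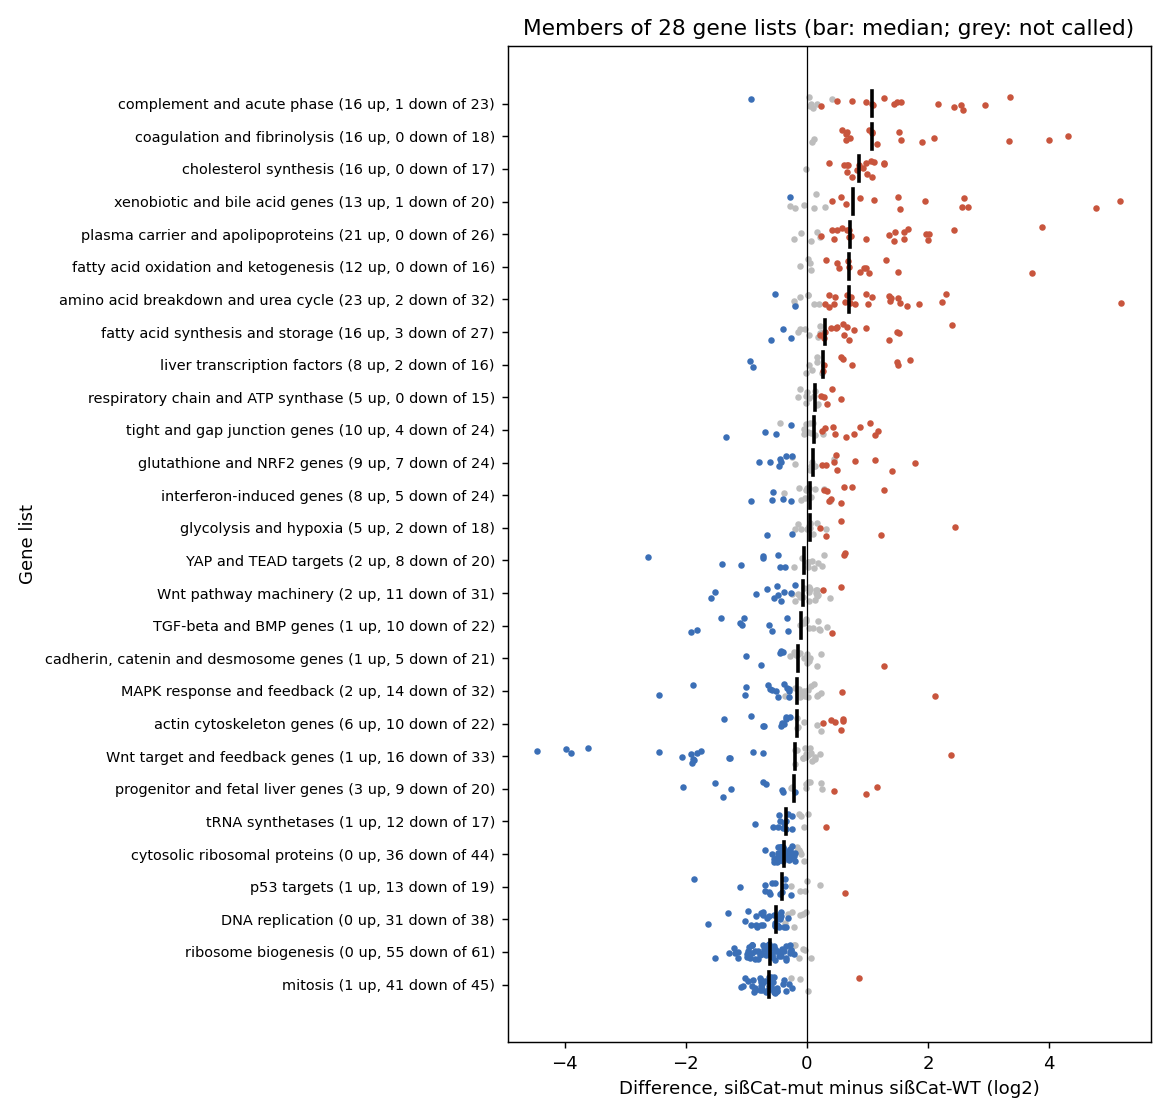
Difference between sißCat-mut and sißCat-WT (log2, horizontal) of every measured member of 28 gene lists, ordered by the median (black bar); red members were higher, blue lower and grey not called, and the labels give the counts. Coagulation and complement genes stand at the top with medians of 1.07 and 1.08, and ribosome biogenesis and mitosis at the bottom with -0.61 and -0.62.

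Of 19 p53 targets 13 were lower and 1 higher, with a median of -0.41. PMAIP1, which triggers cell death at mitochondria, fell by 1.87 ± 0.09, EDA2R by 1.1 and BAX by 0.45, while TP53INP1 rose by 0.63. Without the first sißCat-mut or the first sißCat-both array 2 were higher. Of 20 YAP and TEAD targets 8 were lower and 2 higher, with a median of -0.04, or -0.29 without dim genes. THBS1, thrombospondin, read 10.17, 10.25 and 10.37 against 7.84, 7.64 and 7.46, with 9.09 in siCtrl between them, a fall of 2.62 ± 0.10. The kinase AXL fell by 1.40 and ANKRD1 by 1.09, but both lay above siCtrl in both groups. AXL averaged 6.74 in siCtrl, 8.61 after sißCat-WT and 7.21 after sißCat-mut, and ANKRD1 averaged 8.52, 10.54 and 9.45. CCN2, another standard target, rose by 0.63 ± 0.11, from 11.83 to 12.46, with 11.39 in siCtrl. In the list of MAPK responses 14 of 32 were lower and 2 higher. That count fell to 8 without the second sißCat-WT array or without the third sißCat-mut array, and to 9 without the third sißCat-WT array. MYC and FOSL1, which are also in the Wnt list, led the falls. EGR1, an early response factor, rose by 2.12 ± 0.28, with 8.67, 7.60 and 8.07 against 10.59, 10.01 and 10.09. Of 22 genes of the TGF-β and BMP pathway 10 were lower and 1 higher, with a median of -0.09, or -0.45 without dim genes. Besides BAMBI and BMP4, SMAD9 fell by 1.42, SMAD7 by 1.11, SKIL by 1.07 and SMAD6 by 1.04, all of them brakes on the pathway except SMAD9. FST, which binds activins, was called at 0.41, but not without the first or second sißCat-WT array or the second or the third sißCat-mut array (adjusted p of 0.0956 to 0.148), and 2 genes of the list were higher without the first or second sißCat-both array.

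Genes of the junctions where β-catenin sits were called about as often as genes in general. Of 21 cadherin, catenin and desmosome genes 5 were lower and 1 higher (2 without the first sißCat-mut array), against 31.0% called over all genes, and 8 of the 15 not called were near the floor. JUP, plakoglobin, the close relative of β-catenin that takes part in both adherens junctions and desmosomes, was the one that was higher. It read 8.78, 8.87 and 8.65 after sißCat-WT and averaged 10.04 ± 0.06 (SD, n = 3) after sißCat-mut, so the groups lay apart, with 9.13 in siCtrl, a rise of 1.27 ± 0.08 (2.42-fold, adjusted p = 4.45e-08). The desmosome genes PKP2 and DSC2 fell by 1.0 and 0.76, and DSP (-0.20) did not pass the test, though it did without the third sißCat-mut array (-0.25, adjusted p = 0.0451). DSC2 averaged 8.75 in siCtrl, close to the 8.67 after sißCat-mut and below the 9.44 after sißCat-WT. Of 24 tight and gap junction genes 10 were higher and 4 lower. MARVELD3 rose by 1.17, TJP3 by 1.13 and the claudin CLDN1 by 1.04, while ESAM fell by 1.34. ESAM averaged 7.06 in siCtrl, 8.69 after sißCat-WT and 7.35 after sißCat-mut, so it lay above siCtrl in both groups. Of 22 actin genes 6 were higher and 10 lower, led by ENAH at -1.37. Of 17 genes of epithelial-mesenchymal transition 3 were higher (17.65%) and 4 lower (23.53%), not far above the 14.0% and 17.0% over all genes. SNAI2, a repressor of epithelial genes, read 5.14, 4.87 and 5.19 against 8.92, 9.12 and 8.82, with 5.87 in siCtrl, a rise of 3.88 ± 0.13. LOX, which crosslinks collagen, was higher by 1.03, with a mean of 9.99 both after sißCat-mut and in siCtrl and 8.97 after sißCat-WT. TAGLN fell by 1.27. SNAI1 (-0.05) and VIM (-0.10) did not pass the test.

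Lists of defence held calls in both directions. Of 24 glutathione and NRF2 genes 9 were higher and 7 lower. The metallothioneins MT1F, MT1M and MT1G, which are near copies of each other, rose by 1.79, 1.40 and 1.13, whereas KEAP1, the sensor that holds NRF2, fell by 0.79. Of 24 interferon-induced genes 8 were higher and 5 lower, from -0.93 for IFITM1 to 1.27 for USP18. Of 8 macrophage markers 1 was higher (12.5%) and 2 lower (25.0%), beside 14.0% and 17.0% over all genes. Their mean levels were 6.51 to 6.54 in the sißCat-WT arrays and 6.46 to 6.54 in the sißCat-mut arrays. Without the first or second sißCat-WT array, the first or the third sißCat-mut array, or the second or the third siCtrl array, 1 macrophage marker was lower. None of the 7 endothelial, 6 stellate cell or 3 lymphocyte markers was called by limma with all arrays. Without the second sißCat-WT array 2 endothelial markers and 1 stellate cell marker were higher. Without the second sißCat-mut array, or the second or the third siCtrl array, 1 endothelial marker was higher. Of the stellate cell markers 1 was higher without the third sißCat-mut or the second sißCat-both array, and 1 was lower without the second siCtrl array. Of 6 matrix genes 1 was higher and 1 lower (16.67% each), near the shares over all genes, and the 1 proteasome gene measured did not pass the test.

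Among the 15 largest falls that no list explains by name were PGC, a stomach proteinase (-3.35), CEMIP, which breaks down hyaluronan (-3.23), NPNT (-3.05), FRMD5 (-3.0), ZNF114 (-2.90), LRRN4 (-2.57), CHST15, which sulfates chondroitin (-2.42), RELN, reelin (-2.31), and the cartilage protein MATN3 (-2.27). FRMD5 read 8.0, 8.27 and 8.38 after sißCat-WT, 5.14, 5.30 and 5.22 after sißCat-mut, and 6.32 on average in siCtrl, between the groups. CHST15 averaged 9.27 after sißCat-WT and 6.85 after sißCat-mut, and its siCtrl mean lay above both. Among the 15 largest rises were GAST, the stomach hormone gastrin (3.50), HAVCR1 (3.19), A1BG (3.09) and UNC93A (3.02). GAST read 6.26, 6.23 and 6.30 against 9.93, 10.09 and 9.28, with 6.19 in siCtrl, and a sißCat-both mean of 8.11 between these levels. UNC93A lay at 8.76 in siCtrl, between 7.23 and 10.25.

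The promoters were searched for 6 motifs on both strands, as a description of these 300 bases. For TCF/LEF a match was any of the words CTTTGAA and also the word CTTTGAT, the further word CTTTGTA and lastly the word CTTTGTT. For the E-box it was CACGTG, and for TEAD it was the word CATTCC. The E2F motif was TTTCCCGC, TTTCGCGC, TTTGCCGC or TTTGGCGC, the HNF1 motif GTTAATNAT and the HNF4 motif CAAAGTCCA. RefSeq promoters were at hand for 10749 of the 14884 genes. A TCF/LEF match lay in 3 of 17 Wnt target and feedback promoters, those of SP5, DKK1 and CDX2, against 1182 of the 10749 promoters of all genes tested. It lay in 13.04% of the promoters of genes at least 2-fold lower and in 18.4% of those at least 2-fold higher. An E-box lay in 19 of 49 ribosome biogenesis promoters (38.8%), against 9.02% over all genes tested. Of these 19 genes 17 were lower, beside 55 of the 61 measured in the whole list. The E-box lay in 15.5% of the promoters of genes at least 2-fold lower and in 5.99% of those at least 2-fold higher. An E2F match lay in 17 of 32 DNA replication promoters (53.1%), against 4.49%. Of these 17 genes 12 were lower, beside 31 of the 38 measured in the whole list.

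The HNF1 motif lay in 12 of 217 promoters of genes at least 2-fold higher (5.53%), in 1 of 161 of those at least 2-fold lower, SPP1, and in 0.568% of all genes tested. The 12 were PLG, HAVCR1, GOLT1A, TM4SF4, ERLN, NPSR1-AS1, PRODH2, TMED6, FGA, GCKR, HGFAC and GLYCTK. The HNF4 motif lay in 6 of the 217 (2.77%) and in none of the 161, against 0.288% of all genes tested. The 6 were PGLYRP2, LEAP2, SMLR1, PDZK1, PUS10 and PIPOX. The TEAD motif lay in 5 of 14 YAP and TEAD target promoters (35.7%), against 11.7%, and in 14.9% and 14.8% of the promoters of genes at least 2-fold lower and higher. Promoters of the motif sets may differ in base composition, which was not measured, and the sets differ in how many promoters were at hand. What part these play was not tested.

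**Figure D5:**
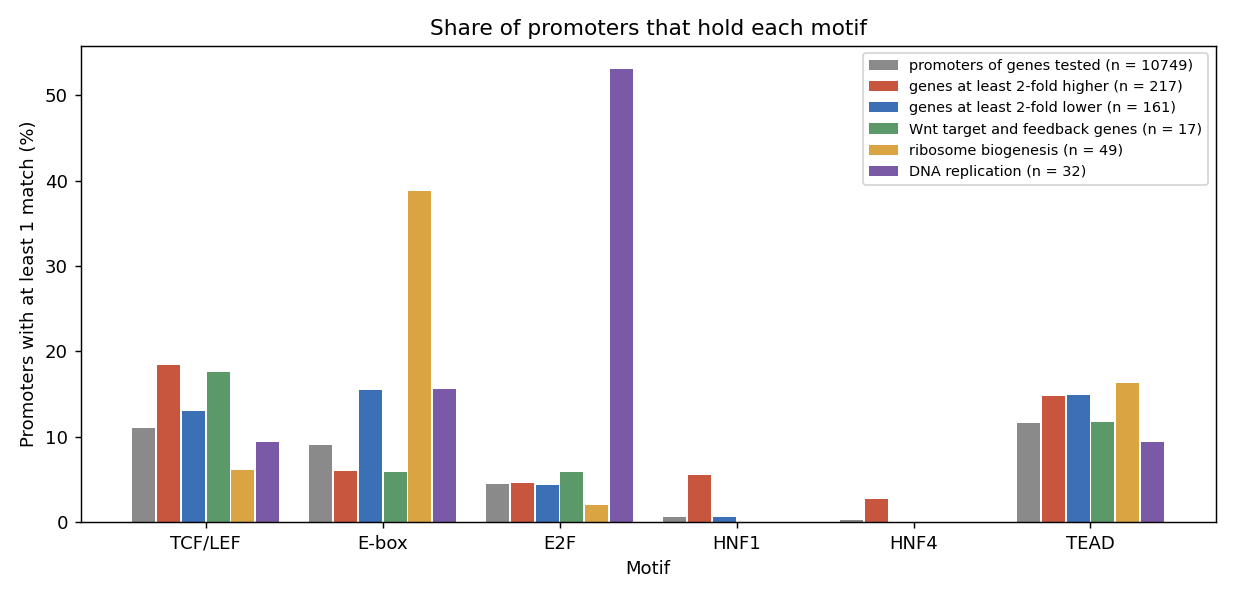
Share of promoters with at least 1 match (%, vertical, from 0) to each of 6 motifs, for all genes tested (grey), genes at least 2-fold higher (red) or lower (blue) after sißCat-mut, and 3 gene lists. The tallest bars are E2F in DNA replication promoters (53.1%) and the E-box in ribosome biogenesis promoters (38.8%), and the HNF1 bar is 5.53% in the red set against 0.568% in grey.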

How the data were processed

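Total RNA of HepG2 cells was turned into biotin-labelled cDNA, per the labels' protocols, and read on Affymetrix arrays. The values deposited by the authors are log2 levels of 53617 probe sets; the submitters' processing notes name RMA and Affymetrix Expression Console 1.1. That they are log2 was inferred from their range. RMA gives all arrays like distributions, so it can hide a shift common to most genes and compresses changes near the floor and ceiling. The annotation build is not stated in the sources used here. Array medians were 4.71 to 4.78, and no value column was without a sample.

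A single symbol was paired with 16098 probe sets, 37519 stayed unnamed, and 779 genes had several probe sets, of which the brightest over the 12 arrays was kept. With limma 3.58.1 in R 4.3.3, a model of 4 groups on all 12 arrays (lmFit, eBayes, 8 residual degrees of freedom) gave sißCat-mut minus sißCat-WT, two-sided, with Benjamini-Hochberg adjustment over 14884 genes. An exact permutation test of 3 against 3 cannot go below 0.10. Groups came from the sample titles. The fit was tested on simulated data in which far fewer genes were changed than were called here. There it recovered 42 of 67 differences of size 0.5, 66 of 67 of size 1 and all 66 of size 2. It made 10 false calls among 184, so real differences of about 0.5 can be missed.

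The members and the 42 gene lists were chosen with earlier results of these data known, so counts and medians of a list are descriptions, set beside those of all genes. Genes were named from the 15 highest and 15 lowest called genes with groups that did not overlap, the whole Wnt target and feedback list, and the further lists, of which at most 4 called members of largest change and 2 bright members not called were to be named; a few well-known members and those carrying a motif were added after their values were seen. Deviations of arrays with equal replicate numbers correlated at 0.0951, 0.0577 and 0.118, not all above 0.1, so the numbers were not taken to pair them. Alternatives were other scalings, filters, probe set rules, priors, array sets, weights and thresholds, and leaving out each array.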

Additional observations from a re-analysis of the deposited data

How the results depend on the processing

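Under other scalings, filters, probe set rules, priors, array sets, weights and a threshold of 0.01, limma called 3353 to 4886 genes, 1502 to 2224 higher and 1851 to 2662 lower, with 491 to 527 at least 2-fold. With all probe sets, named or not, it called 8664, 4130 higher and 4534 lower, with 1321 at least 2-fold; more features were tested there. Leaving out each array in turn gave 3983 to 4754 called, 1808 to 2150 higher and 2148 to 2604 lower, with 507 to 538 at least 2-fold. With the replicate block 4791 genes were called on all 12 arrays and 4567 on the 6 compared; each array correlated best with its own number, a hint from the data and not from the design. Among the genes named, the replicate block on 12 arrays brought LGR4 (adjusted p = 0.037), LRP6 (0.0311) and CDC25C (0.0324) past the threshold. On 6 arrays it brought CDC25C (0.0427) and RRM2 (0.00935) past it and lost GLUL (0.0614) and APOB (0.0534). Of 5348 values of the 233 genes named, 5292 kept direction and call. The sign turned in 16, all small. After renewed quantile scaling C3 and LEF1 read -0.01. Leaving out 1 array at a time gave -0.04 to 0.09 for EPHB3, -0.1 to 0.01 for FGF9, -0.02 to 0.22 for FZD7, -0.03 to 0.06 for LEF1, -0.07 to 0.03 for PROM1, -0.08 to 0.11 for SAA1, -0.11 to 0.06 for SFRP1, -0.21 to 0.01 for VIM and -0.06 to 0.01 for WIF1. B2M was not called with the probe set of largest variance (0.28, adjusted p = 0.126). The cause of these changes was not tested. Without dim genes no endothelial marker was left to give a value. Few arrays and signal near the floor limit what could be called.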

Other observations

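The genes in this section were chosen after their values were seen, and no test beyond the fit over all genes was run on them. Among enzymes that sulfate, build or cut the sugar chains of the cell surface and matrix, 7 picked for being lower after sißCat-mut than after sißCat-WT are given here. CHST15 fell by 2.42, CHST3 by 1.61, HS3ST5 by 1.5, CSGALNACT2 by 1.25, CHST14 by 1.22, HS6ST1 by 1.16 and ARSB by 1.06. CSGALNACT2 averaged 6.61 in siCtrl, 8.09 after sißCat-WT and 6.83 after sißCat-mut, so it lay above siCtrl in both groups. For the others the siCtrl mean lay above that of sißCat-mut. Of all 15 CHST genes measured 5 were lower and none was called higher, with a median difference of -0.15, beside 17.0% lower over all genes. CEMIP, which breaks down hyaluronan, fell by 3.23, while HABP2, which binds it, rose by 4.31.

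Among genes known from microvilli, 6 that were picked for being higher are given here, with no count over all such genes. The motor MYO1A rose by 1.86, the scaffold PDZK1 by 1.74, ANKS4B by 1.71, MYO7A by 1.36, COBL by 1.24 and the actin bundler VIL1 by 1.23. Both subunits of the mitochondrial pyruvate carrier, MPC1 and MPC2, rose by 1.43 and 1.64, both monoamine oxidases, MAOA and MAOB, by 1.16 and 1.8, and the acyltransferases MOGAT2 and MOGAT3 by 2.04 and 1.96. The siCtrl means of MPC2 and MAOB, 10.06 and 8.80, lay nearer to sißCat-mut (10.72 and 9.15) than to sißCat-WT (9.08 and 7.35). For MPC1, MAOA, MOGAT2 and MOGAT3 siCtrl lay nearer to sißCat-WT. Of 23 small Cajal body RNA genes 12 were lower and 1 higher (median -0.35), and of 21 nucleoporin genes 15 were lower and none was called higher (median -0.35). The share lower was 17.0% over all genes tested, and 1187 of the 3721 brightest genes were lower.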
